A study of Populus tremula with 16 samples.

Results

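LHY1 (Potri.002G180800), LHY2 (Potri.014G106800) and TOC1 (Potri.015G061900) are core genes of the circadian clock of poplar. They were taken by name and not by a cut on any measured value, though earlier results of these data were known. They are 3 of the 41335 gene IDs counted in this series, and all 3 were among the 15583 that passed the filter on low counts. The names came with the choice of these genes, since the deposited tables hold IDs only, and the pairing was not checked against an annotation here. The series followed leaves of Populus tremula, the European aspen, through the autumn of 2011 with 1 RNA sequencing library per date on 16 dates over 66 days. No treatment or genotype is given in the labels, which tell the samples apart by date alone, and how many trees or leaves went into a library is not given either. By the calendar, 4 libraries from July and August are called early, 6 from the first 15 days of September are called middle, and 5 from 16 September onwards are called late. Whether the tissue is leaf could not be checked from markers, since the IDs carry no gene names.

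The clock of plants is a loop of transcription factors that repress each other in turn over the day. In Arabidopsis, LHY is a MYB transcription factor whose RNA peaks around dawn and which represses evening genes, among them TOC1. TOC1 is a pseudo-response regulator whose RNA peaks towards dusk and which represses LHY in return. Aspen has a pair of LHY genes that stem from a genome duplication, and in hybrid aspen they are known to take part in the growth stop and bud set that follow shortening days. RNA levels of clock genes swing within a day, and the sources used here do not give the time of day of collection. A difference between dates in these genes can therefore not be told apart from a difference in the hour of collection.

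Library totals ranged from 719419 to 6729131 counts, and the members had 22 to 1085 counts per library. The library of 19 September was left out as part of the choice of these genes, so 15 libraries were used. None of its IDs had more counts than in the library of 18 September, so it may not be independent of that library. Levels are given as CPM, that is counts scaled to 1 common library size, after correction with trimmed means of M values (TMM), a scaling to the bulk of the genes, and intervals are exact 95% Poisson intervals, which cover counting error only. CPM do not take gene length into account, so levels are compared between dates for 1 gene and not between genes. Because LHY1 and LHY2 are duplicates, and the sources used here do not say how reads with several matching places were counted, reads may have been split between them. No nucleotide or protein sequence of the members is in the files used here, so none is shown.

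The LHY genes swung widely between summer dates, with LHY2 28.9-fold higher on 5 August than on 27 July, while TOC1 stayed within 1.29-fold over the same 4 dates. LHY1 stood at 24.7 CPM on 27 July (interval 20.1 to 30.2), 222 CPM on 5 August (208 to 236), 53.2 CPM on 19 August (46.2 to 60.9) and 83.0 CPM on 31 August (73.7 to 93.3). These 4 intervals did not overlap, and the highest date was 8.97-fold above the lowest. In a whole leaf, fewer cells with the RNA and less RNA per cell cannot be told apart. Its 6 middle libraries ran from 45.1 CPM on 11 September through a median of 90.02 CPM to 134 CPM on 2 September. On 18, 22, 26 and 28 September it held 153, 169, 154 and 138 CPM, and by 1 October 90.5 CPM. Late levels were thus close together and high from 18 to 28 September, yet with TMM all of them lay below 5 August. Scaled by library totals alone, LHY1 was at 148 CPM on 5 August. It was then at 170, 207, 176 and 206 CPM on 18, 22, 26 and 28 September and at 139 CPM on 1 October.

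LHY2 showed the same order of dates in summer with a wider swing. It stood at 8.33 CPM on 27 July (interval 5.74 to 11.7), 241 CPM on 5 August (227 to 256), 27.9 CPM on 19 August (22.9 to 33.6) and 83.0 CPM on 31 August (73.7 to 93.3). These levels rest on 33, 1085, 110 and 284 counts. In the authors' normalised table the first of these dates had 8.28 and the second 244, in units of counts divided by 1 factor per library. Middle libraries ran from 27.5 CPM on 11 September, the shallowest library, through a median of 93.5 CPM to 152 CPM on 2 September. Among late dates, 18 and 22 September had 159 and 187 CPM, after which levels were 101 CPM (26 September), 49.6 CPM (28 September) and 24.1 CPM (1 October). The last date was 7.74-fold below 22 September, with intervals of 16.0 to 34.9 and 175 to 200 CPM. With TMM, the range of LHY2 in the late period lay inside its range in the early period. Scaled by library totals alone it did not, with 229 CPM on 22 September against 161 CPM on 5 August.

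**Figure D1:**
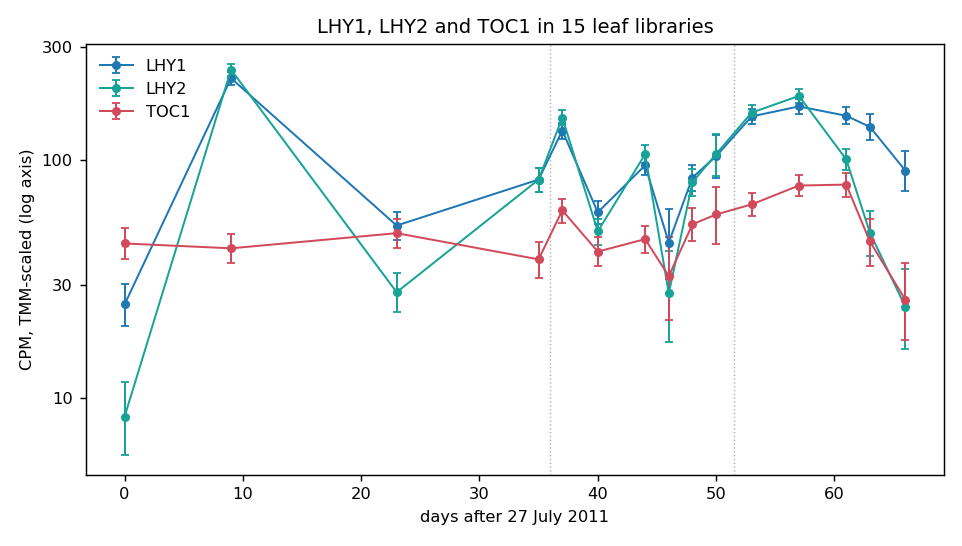
CPM (TMM-scaled, log axis) of LHY1, LHY2 and TOC1 against days after 27 July, 1 point per library with its exact 95% Poisson interval and dotted lines between the 3 periods. LHY1 and LHY2 rise and fall together with peaks of 222 and 241 CPM on 5 August, TOC1 stays between 25.9 and 79.1 CPM, and LHY2 and TOC1 drop over the last dates.

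TOC1 was the steadiest of the 3 genes in summer, and of its own 3 periods it varied most in the late one. Early libraries held 44.7 CPM on 27 July, 42.6 CPM on 5 August, 49.4 CPM on 19 August and 38.3 CPM on 31 August. All 4 intervals overlapped, also those of the highest date (42.7 to 56.8) and the lowest (32.0 to 45.5). Middle libraries ran from 32.6 CPM on 11 September through a median of 50.2 CPM to 61.6 CPM on 2 September. Levels were 65.3, 78.4 and 79.1 CPM on 18, 22 and 26 September, followed by 45.6 CPM on 28 September and 25.9 CPM on the last date. With TMM, the lowest and the highest TOC1 level of the whole series both fell in the late period, within 5 days of each other. The lowest, on 1 October, rests on 30 counts. Its interval (17.5 to 36.9) overlapped those of 11 September (21.3 to 47.7) and 31 August (32.0 to 45.5). Scaled by library totals alone, the lowest fell on 31 August (25.4 CPM).

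Set against other IDs with a mean of at least 10 CPM, the summer swing of the LHY genes was among the widest. Among the 5907 IDs with a mean of at least 10 CPM, the standard deviation (SD) of log2 CPM over the 4 early libraries had a median of 0.28. LHY2 had an SD of 2.04, which 4 IDs exceeded, and LHY1 had 1.31, which 38 IDs exceeded. TOC1 had 0.15, and 4950 IDs had more. In the middle period the SD was 0.88 for LHY2, 0.56 for LHY1 and 0.35 for TOC1, against a median of 0.34. In the late period the median over IDs was 0.64. LHY2 then had an SD of 1.22 and TOC1 one of 0.67, while LHY1 had 0.35, which 4634 IDs exceeded. These SDs hold counting noise and any change over the dates, and they are given as a description. Early dates also lie farther apart than those of the other periods.

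**Figure D2:**
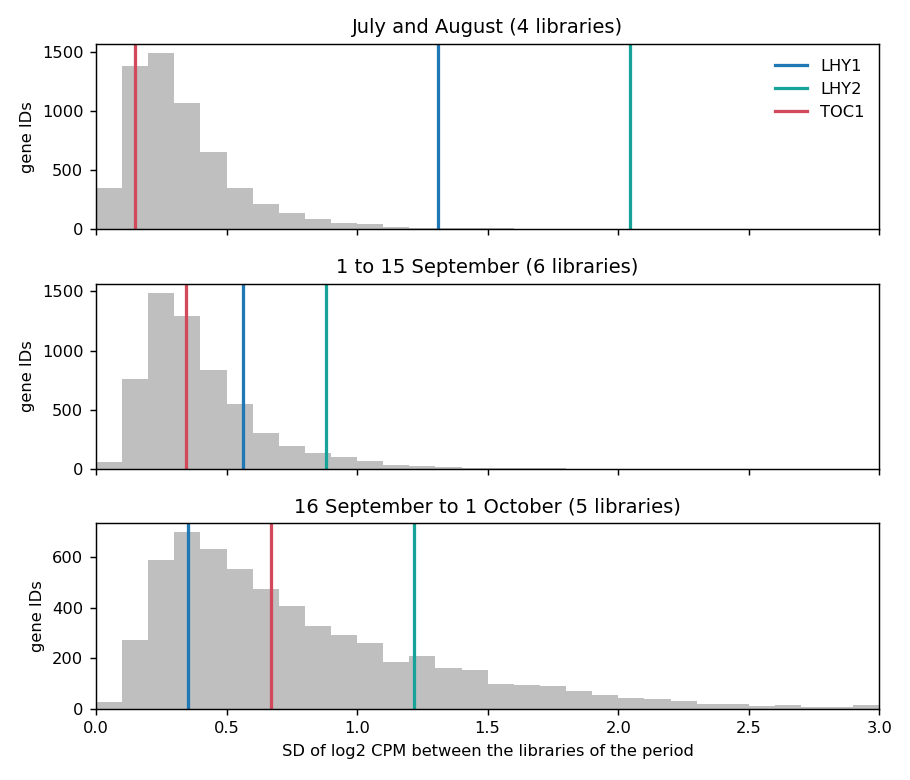
Number of gene IDs (of 5907 with a mean of at least 10 CPM) by the SD of log2 CPM between the libraries of each period, with the axis ending at 3 and coloured lines at the 3 clock genes. In July and August LHY1 (1.31) and LHY2 (2.04) lie far right of the bulk and TOC1 (0.15) left of it, and late in the season LHY1 (0.35) has moved to the left.

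Single steps between neighbouring dates show where the swing came from. From 27 July to 5 August LHY2 went up by 4.76 log2 units, a step exceeded by 0.0339% of the 5907 IDs, and LHY1 by 3.13 units, exceeded by 0.203%. The median absolute step of all IDs between these libraries was 0.36 units, and TOC1 moved by -0.067 units. From 5 to 19 August LHY2 moved by -3.09 units and LHY1 by -2.05 units, with 0.203% and 1.08% of the IDs making larger steps, while TOC1 moved by 0.21 units. In September the LHY genes still went up and down from date to date. LHY2 moved by -1.58 units from 2 to 5 September, 1.07 units to 9 September, -1.92 units to 11 September and 1.53 units to 13 September. Over these steps TOC1 moved by -0.57, 0.17, -0.51 and 0.71 units. Between 22 September and 1 October LHY2 made 3 steps down in a row, of -0.88, -1.02 and -1.02 units, with 14.9%, 34.8% and 10.9% of the IDs making larger ones. TOC1 moved by 0.013, -0.79 and -0.80 units in these 3 steps, and LHY1 by -0.13, -0.16 and -0.61 units. Steps larger than those of TOC1 were made by 98.2%, 45.95% and 18.7% of the IDs. For LHY1 these shares were 82.4%, 88.4% and 29.7%.

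LHY1 and LHY2 moved together from date to date. Their steps had the same sign in 14 of 14 cases. Log2 CPM of both correlated over the 15 libraries with Pearson's r of 0.88 (permutation p = 7e-05, adjusted 0.00021 over the 3 pairs of members) and Spearman's rho of 0.81 (permutation p = 0.00048, adjusted 0.00144). Without the 2 libraries farthest from the median of LHY1, r was 0.75 and rho was 0.71. The relation kept its call without each library in turn, with r between 0.80 and 0.92. After subtracting a spline of the day from both genes, r was 0.99, and none of the other 5906 IDs was closer to either gene on this measure. On the plain levels 4 IDs were closer to LHY1 than LHY2 was. Neighbouring dates are not independent, so p-values over dates are too small, and any error in scaling a library moves its genes together.

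LHY2 moved further than LHY1 for the same change. Over the 12 libraries up to 22 September, a limit not planned in advance, the slope of LHY2 on LHY1 in log2 CPM was 1.53, with r of 0.98. The ratio of LHY1 to LHY2 counts therefore depended on the level. It was 2.97 on 27 July (exact binomial 95% interval 1.98 to 4.55) and 1.91 on 19 August (1.51 to 2.43), when both genes were low. On 5 August it was 0.921 (0.844 to 1.004), and on 2 September it was 0.882 (0.791 to 0.982), when both were high. A ratio within 1 library needs no scaling between libraries. Over all 15 libraries, intervals were separate in 51 of 105 pairs of dates.

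The last 3 dates lay off this line, which was fitted without them, so this is a description. From 22 to 26 September the ratio of LHY1 to LHY2 went from 0.903 (0.819 to 0.996) to 1.53 (1.34 to 1.74), then up to 2.79 (2.17 to 3.61) by 28 September and 3.75 (2.45 to 5.91) by the last date. LHY1 on 28 September was at 138 CPM, near its level on 2 September, yet LHY2 was at 49.6 CPM against 152 CPM on that date. On 1 October LHY1 was at 90.5 CPM and LHY2 at 24.1 CPM, whereas on 9 September they were at 95.3 and 106 CPM. With the 3 dates included the slope was 1.39 and r was 0.88. The 3 periods did not differ in the mean log2 ratio of LHY1 to LHY2 beyond the spread of dates. Means were 0.59 ± 0.80 for early dates (SD, n = 4), 0.11 ± 0.33 for middle dates (SD, n = 6) and 0.75 ± 0.91 for late dates (SD, n = 5), with two-sided exact permutation p of 0.233, 0.149 and 0.825 for middle against early, late against middle and late against early (adjusted over 6 tests 0.467, 0.448 and 0.825). The direction of late against early turned without 5 August, 31 August, 28 September or 1 October (-0.074, -0.034, -0.017 and -0.12).

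**Figure D3:**
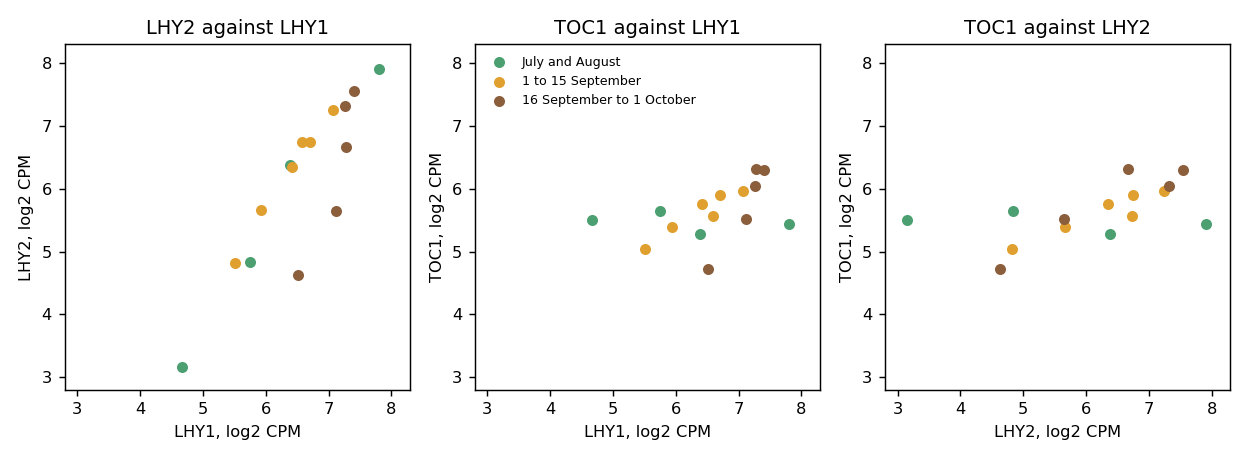
Log2 CPM of each pair of members, 1 point per library, coloured by period, on equal axes. LHY2 lies on a steep line with LHY1 except on the last 3 dates, where it is lower, whereas TOC1 changes little along the wide early range of the LHY genes.

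TOC1 did not run opposite to the LHY genes across dates. Its log2 CPM correlated with LHY2 with r of 0.57 (permutation p = 0.0278, adjusted 0.0418) and rho of 0.58 (permutation p = 0.0251, adjusted 0.032). With LHY1, r was 0.46 (permutation p = 0.0872, adjusted 0.0872) and rho was 0.56 (permutation p = 0.032, adjusted 0.032). Without the 2 libraries farthest from the median of the first gene, r was 0.55 for LHY2 and 0.67 for LHY1. The LHY2 relation lost its call without any 1 of 2, 5, 11, 13, 15, 18, 22 and 28 September or 1 October, with r of 0.50 to 0.56 in these cases, without the last 2 dates (r = 0.49), and with relative log expression as the scaling (r = 0.51). The LHY1 relation gained a call without 5 August (r = 0.56, adjusted p = 0.0371 by permutation). For LHY1, r was 0.37 with relative log expression, 0.39 with upper quartile scaling and 0.73, which was called, with library totals alone. Here too, any error in scaling a library moves its genes together. Steps of TOC1 had the sign of those of either LHY gene in 10 of 14 cases. All 3 steps between the 4 early dates had the opposite sign. Within the 6 middle libraries r was 0.95 with LHY1 and 0.93 with LHY2 (permutation adjusted p = 0.00694 for each). These values rest on 6 dates, with only 22 to 36 counts per member on 11 September. The 4 early dates are too few for a value.

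The balance of morning and evening genes, read as the ratio of LHY1 plus LHY2 counts to TOC1 counts, differed most between summer dates. It was 0.740 on 27 July (interval 0.586 to 0.933), 10.9 on 5 August (9.36 to 12.6), 1.64 on 19 August (1.37 to 1.97) and 4.34 on 31 August (3.58 to 5.28). These 4 intervals were separate, and the highest was 14.7-fold above the lowest. From 31 August on all ratios lay between 2.23 and 4.78. Middle ratios ran from 2.23 on 11 September (1.38 to 3.69) and 2.68 on 5 September (2.28 to 3.16) to 4.63 on 2 September (4.07 to 5.27). Late ratios on 18, 22, 26 and 28 September were 4.78, 4.54, 3.23 and 4.13, followed by 4.43 on the final date of 1 October. Of these, the interval of 26 September (2.83 to 3.69) was separate from those of 18 and 22 September (4.23 to 5.42 and 4.05 to 5.10). In all, intervals were separate in 56 of 105 pairs of dates. These intervals cover counting error only, and with 1 library per date the variation between libraries of the same date is not known.

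**Figure D4:**
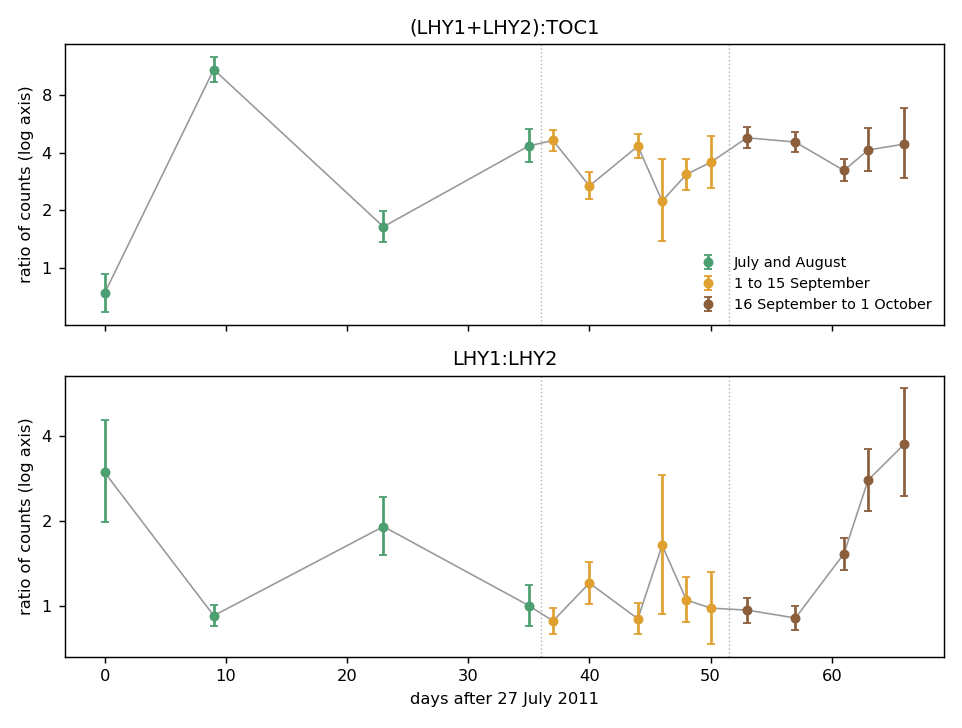
Ratio of LHY1 plus LHY2 to TOC1 counts and of LHY1 to LHY2 counts (log axes) against days after 27 July, with exact binomial 95% intervals and colours for the periods. The upper ratio swings from 0.740 to 10.9 in summer and stays between 2.23 and 4.78 from 31 August, and the lower one climbs to 3.75 on 1 October.

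Between periods this balance did not differ beyond the spread of dates. The mean log2 ratio was 1.46 ± 1.68 over early dates (SD, n = 4), 1.72 ± 0.41 over middle dates (SD, n = 6) and 2.06 ± 0.22 over late dates (SD, n = 5). Two-sided exact permutation tests gave p of 0.71 for middle against early, 0.136 for late against middle and 0.437 for late against early, with 0.825, 0.448 and 0.655 after adjustment over 6 tests. Without 27 July the first and last differences turned, to -0.37 and -0.029. With LHY1 alone over TOC1, late dates were above middle ones by 0.57 log2 units (exact permutation p = 0.0195, adjusted 0.117), and with LHY2 alone the difference was -0.077 (exact permutation p = 0.84). The ratio was not called to move with the day (r = 0.33, permutation p = 0.231, adjusted 0.461; rho = 0.22, permutation p = 0.435, adjusted 0.55). Leaving out the 2 libraries whose day lies farthest from the median, 27 July and 5 August, gave r of 0.51. Over all 15 libraries r depended on each of these summer dates. Without 5 August alone it was 0.79 (permutation adjusted p = 0.00644), and without 27 July alone it was -0.18. The SDs narrowed from period to period, and whether they differ was not tested. The periods also differ in length. Early dates fell on days 0 to 35 after 27 July, middle ones on days 37 to 50 and late ones on days 53 to 66.

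As averages over the periods, none of the 3 genes was called changed. By edgeR's quasi-likelihood test across all 15583 tested IDs at an adjusted p of 0.05, 0 of the 3 members passed from the early to the middle period, against 4.55% of the tested IDs. From the middle to the late period 0 of 3 passed against 47.7%, and from early to late 0 of 3 against 58.2%. A natural spline over days, with 3 degrees of freedom, called 0 of 3 members and 62.9% of the IDs. At an unadjusted p of 0.05, 0 members passed in these 4 tests. In the 3 contrasts 2940, 8543 and 9791 of the 15583 IDs passed it. DESeq2 called 0 members in each, against 1213, 7759 and 9259 IDs in the contrasts and 10214 over days. In the contrasts limma-voom called 0 members, against 808, 7218 and 8984 IDs. Limma on the authors' normalised values called 0 members there, against 733, 8478 and 10550 of 19769 IDs.

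Intervals of these averages were wide for the LHY genes and narrower for TOC1. LHY1 averaged 95.7 ± 87.4 CPM over early dates (SD, n = 4), 87.2 ± 31.6 CPM over middle dates (SD, n = 6) and 141 ± 30.2 CPM over late dates (SD, n = 5). Its log2 change from early to late was 0.56 (SE 0.47, 95% interval -0.44 to 1.56, edgeR adjusted p = 0.322). From middle to late it was 0.69 (interval -0.20 to 1.58, edgeR adjusted p = 0.186), and this is the nearest any member came to a call in the 3 contrasts. LHY2 was at 90.05 ± 105 CPM, 87.1 ± 44.3 CPM and 104 ± 69.3 CPM in these periods. Its early to late change was 0.22 (SE 0.73, interval -1.31 to 1.74, edgeR adjusted p = 0.816). TOC1 was at 43.8 ± 4.60 CPM, 49.2 ± 11.2 CPM and 58.8 ± 22.9 CPM, with an early to late change of 0.44 (SE 0.30, interval -0.20 to 1.07, edgeR adjusted p = 0.226). From early to middle the changes were -0.13 for LHY1 (edgeR adjusted p = 0.924), -0.042 for LHY2 (0.99) and 0.17 for TOC1 (0.818). The spline curves spanned 0.68 log2 units for LHY1, 1.31 for LHY2 and 0.60 for TOC1 (edgeR adjusted p = 0.761, 0.76 and 0.443).

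Single dates decided which of these averages passed. Without 5 August, LHY1 rose by 1.33 log2 units from early to late (edgeR adjusted p = 0.0144), and the spline called both LHY1 (fitted range 2.28, adjusted p = 0.0097) and LHY2 (3.99, adjusted p = 0.00495). Without 27 July neither passed, and both fitted curves ended lower than they began, with signed ranges of -1.41 and -2.37 (edgeR adjusted p = 0.0666 and 0.0771). TOC1 was called higher late than early without 1 October (0.60, edgeR adjusted p = 0.0484). Without 28 September and 1 October it rose by 0.76 from early to late (edgeR adjusted p = 0.00565) and by 0.57 from middle to late (adjusted p = 0.0278), and the spline called it (range 1.01, adjusted p = 0.0353). With 4 degrees of freedom the spline called TOC1 over all 15 libraries as well, with a signed range of -1.39 (edgeR adjusted p = 0.0292). When libraries were scaled by their totals alone, LHY1 and TOC1 were called higher late than early, but the median of all tested IDs then shifted by 0.92 log2 units. Relative to that median their changes were 0.58 and 0.43, against 0.55 and 0.43 with TMM.

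A few IDs followed the LHY genes closely, and 5 of them were nearer to LHY2 on plain levels than LHY1 was. For each member, the 3 IDs with the highest r of log2 CPM over the 15 libraries were taken from the IDs with a mean of at least 10 CPM. The sources used here do not give what they encode. The closest to LHY1 was Potri.001G031800 (r = 0.96), with 9.09 CPM on 27 July, 143 CPM on 5 August, 20.3 CPM on 19 August and 86.2 CPM on 1 October. Next came Potri.012G038300 (r = 0.95) and Potri.001G205800 (r = 0.93). Potri.012G038300 was also the closest to LHY2 (r = 0.92), with 4.54, 42.9 and 7.60 CPM on the first 3 dates, and it was followed by Potri.014G106000 (r = 0.92) and Potri.006G167200 (r = 0.89). After subtracting the spline of the day, Potri.012G038300 (r = 0.97) and Potri.004G134500 (r = 0.96) were nearest to LHY1, and Potri.012G038300 (r = 0.97) and Potri.001G031800 (r = 0.97) to LHY2.

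The 3 IDs closest to TOC1 were lower on 28 September and 1 October than on 26 September, as TOC1 was. They were picked for their r with TOC1 over these same libraries, so this likeness is not a separate result. Potri.015G105100 (r = 0.90) held 577, 537, 759 and 609 CPM on the 4 early dates, 1526 CPM on 26 September and 395 CPM on 1 October. Potri.004G016900 (r = 0.89) and Potri.008G029700 (r = 0.89) came next. Early levels of Potri.008G029700 were less even than those of TOC1, with 19.9, 16.9, 20.5 and 6.43 CPM. Of 5906 IDs, 583 were closer to TOC1 on plain levels than LHY2 was and 934 were closer than LHY1 was. After subtracting the spline, Potri.004G231700 (r = 0.94) and Potri.001G249600 (r = 0.93) were the nearest to TOC1. Over the 5904 IDs other than the members, 125 had an r above 0.8 with LHY2 after that subtraction, and 17 had one below -0.8. These values of r across IDs come from the same 15 libraries and are descriptions, since IDs are not independent of each other.

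**Figure D5:**
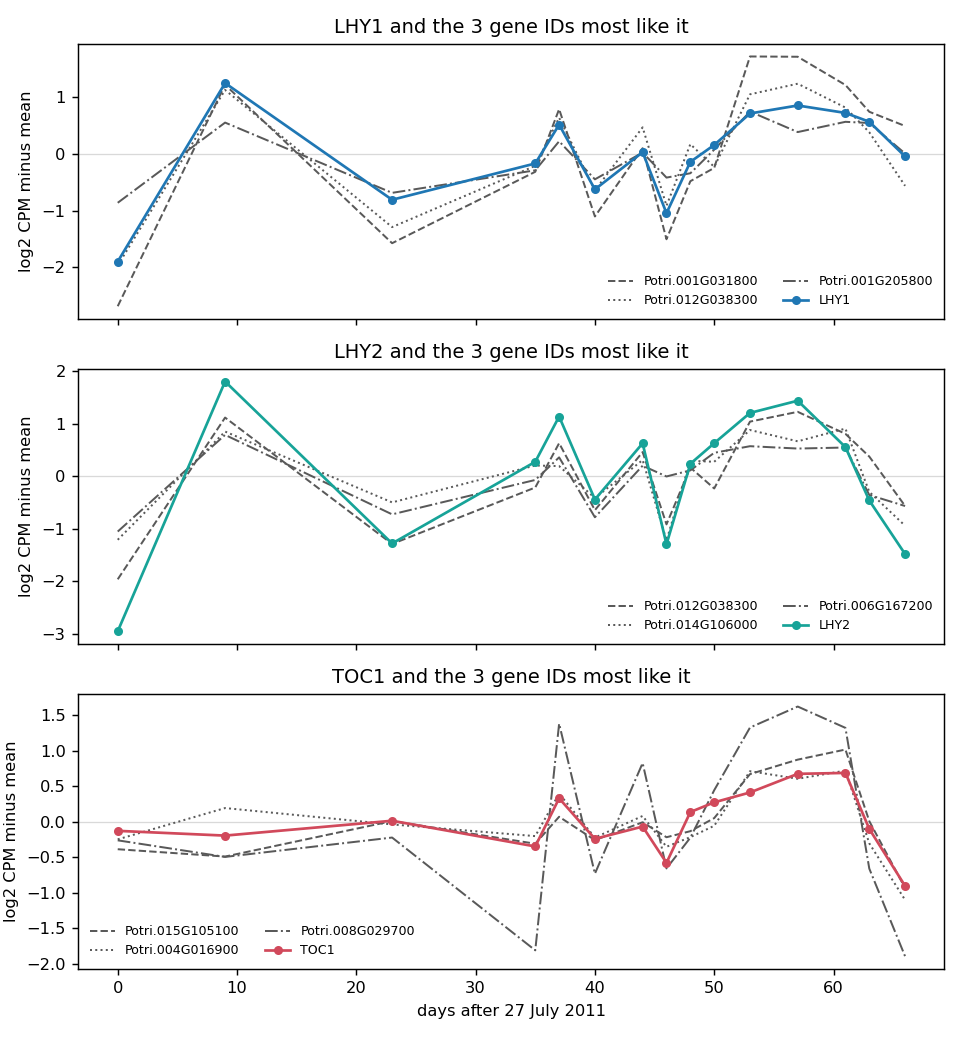
Log2 CPM minus the mean of each gene ID against days after 27 July, for each member (coloured) and the 3 IDs with the highest r (grey lines). IDs near LHY1 and LHY2 are higher on 5 August than on 27 July and 19 August, though most are highest in the late period, and those near TOC1 are lower after 26 September.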

How the data were processed

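Libraries were made with Illumina TruSeq RNA, per the labels' protocols. The raw table deposited by the authors holds read counts of each gene ID, and the 16 single library tables, named as log values, held the same whole counts. A second table deposited by the authors holds a normalised signal, which is the count over 1 factor for each library. Multiplied by that factor, 99.98% of its values were whole within 0.01, and 100% of the rounded reads equalled the raw counts. The count test on those reads called 709, 7440 and 9068 IDs in the 3 contrasts, as on the raw counts. CASAVA 1.8.2, FastQC 1.0, Trimmomatic 1.0, STAR 2.4 and HTSeq were used, per the submitters' processing notes. The sources used here give no genome build, annotation or strand setting.

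Contrasts of the 3 periods and a natural spline of the day (3 degrees of freedom) were fitted to raw counts of 15 libraries by edgeR's quasi-likelihood functions glmQLFit and glmQLFTest (version 4.0.16, R 4.3.3), with filterByExpr (minimum count 10, minimum total 15), TMM scaling and Benjamini-Hochberg adjustment over all tested IDs. The standard error (SE) was the log2 change over the root of F. Log2 CPM had a prior count of 2, and log2 ratios of counts had 0.5 added. DESeq2 1.42.0 and limma 3.58.1 were alternatives. Limma was run with voom on the TMM-scaled counts, and separately on log2 of the normalised value plus 1. Correlations had 100000 permutations. The fits were tested on simulated data. Nothing says that dates stem from separate trees, so p-values reflect date-to-date scatter alone, which may be technical in part. The members, lists and rules were chosen with earlier results of these data known. For the IDs named beside the members, the rule was the highest r with each member, 3 on levels and 2 after subtracting the spline. No other clock gene is described, because no annotation of the IDs was used here.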

Additional observations from a re-analysis of the deposited data

Results flagged for a closer look

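The library of 19 September, which entered no fit, held 185 counts of LHY1, 197 of LHY2 and 84 of TOC1, above the limit of 3 that a count of 0 allows. On 18 September the counts were 739, 767 and 315. Its ratio of LHY1 plus LHY2 to TOC1 was 4.55 (exact binomial 95% interval 3.58 to 5.83), against 4.78 on 18 September. In 15 groups of 4 to 6 libraries, formed by the 3 members and 2 ratios in 3 periods, no highest or lowest library was separated from its neighbour beyond Dixon's critical value at 95%. About 1 in 20 groups would pass that value by chance.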

How the results depend on the processing

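No paired analysis was possible because each date has 1 library and the labels give no replicate numbers. From early to middle, LHY1 and LHY2 turned to 0.53 and 0.62 log2 units with library totals alone, where the median of all tested IDs shifted by 0.62 and their changes relative to it were -0.092 and -0.0033. They turned to 0.22 and 0.69 with limma-voom, 0.22 and 0.67 with limma on the authors' normalised values, and 0.36 and 0.66 without 27 July and 5 August (chosen after seeing the data), none of them called. Library totals alone gave calls for TOC1 from early to middle (0.84, or 0.21 relative to that median against 0.18 with TMM) and for LHY1 and TOC1 from early to late (1.50 and 1.35), and a TOC1 curve of range 1.39 that ended higher than it began. Of the calls, 96.4%, 65.4% and 79.5% were then higher in the 3 contrasts, against 53%, 51.2% and 50.3% with TMM, and 38.2% from middle to late with upper quartile scaling. With period limits 1 date later LHY2 changed by -0.17 from early to late. Without 28 September and 1 October TOC1 was called from middle to late (0.57) and from early to late (0.76). The fitted curves of LHY2 and TOC1 then ended higher, with ranges of 1.11 and 1.01. With 2 degrees of freedom the TOC1 curve ended higher (0.41), and with 4 it was called (-1.39, negative because it ended lower). The log2 ratio of LHY1 to LHY2, late against early, turned to -0.46 without the last 2 dates and to -0.17 with limits 1 date earlier. Its r with the day was 0.04 (adjusted permutation p = 0.883) and turned to -0.48 without the last 2 dates. The late to middle difference of the ratio to TOC1 was -0.077 with LHY2 alone. The correlation of LHY2 and TOC1 lost its call without the last 2 dates (0.49) and with relative log expression (0.51). That of LHY1 and TOC1 gained one with library totals alone (0.73) and within 1 to 15 September (0.95).

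Leaving out each library in turn gave log2 changes from early to middle of -0.46 to 0.70 for LHY1 and -0.43 to 1.14 for LHY2. From middle to late LHY2 ran from -0.055 to 0.47. From early to late the ranges were 0.23 to 1.33 for LHY1, -0.17 to 1.35 for LHY2 and 0.32 to 0.60 for TOC1. Signed ranges of the fitted curves ran from -1.41 to 2.28 for LHY1, -2.37 to 3.99 for LHY2 and -0.83 to 0.63 for TOC1. The log2 ratio of LHY1 plus LHY2 to TOC1 ran from -0.37 to 0.92 for middle against early and -0.029 to 1.26 for late against early, and its r with the day from -0.18 to 0.79. For the ratio of LHY1 to LHY2, late against early ran from -0.12 to 0.48 and r with the day from -0.19 to 0.43. Correlations with TOC1 ran from 0.38 to 0.56 for LHY1 and 0.50 to 0.67 for LHY2. The correlation of LHY1 and LHY2 kept its call in all 15 cases and in the 7 other alternatives with a test. Causes of these shifts were not tested. Depth limits single dates, with 22 to 36 counts per member on 11 September. On 1 October there were 28 counts of LHY2 and 30 of TOC1, and on 28 September 86 and 79.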
